A study of Mus musculus with 16 samples.

Results

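The retinoid metabolism genes described here are *Rdh10*, *Dhrs9*, *Aldh1a1*, *Aldh1a2*, *Aldh1a3*, *Crabp1*, *Crabp2*, *Rarg* and *Cyp26b1*. They were taken as a list of symbols by their role in retinoid metabolism, with no threshold on measured values though with earlier results of these data known, and make up 9 of the 55359 genes counted in the bulk mRNA sequencing of mouse dorsal skin with and without UVB irradiation. All 9 had enough counts to be tested in every comparison. RNA was taken from the whole dorsal skin of 16 wild-type C57Bl/6N mice, an inbred strain, 8 weeks old and in telogen, when hair follicles rest. UVB-irradiated males and UVB-irradiated females (4 mice each) had received 3 UVB exposures, 1 every other day, and their skin was collected 6 h after the last exposure, on day 5. No-UVB males and no-UVB females (4 mice each) were not irradiated, and no group carried a transgene or received a drug. The comparison within each sex asks how the skin responds to UVB, and that of the responses asks where males and females differ. Since whole skin holds epidermis, dermis, hair follicles, fat and muscle, a lower value can come from fewer cells of a type or from less RNA per cell, and these cannot be told apart in bulk samples.

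Retinoic acid, the active form of vitamin A, is made within the skin from retinol. Retinol is first oxidised to retinal by retinol dehydrogenases such as *Rdh10* and *Dhrs9*, and retinal is then oxidised irreversibly to retinoic acid by the retinal dehydrogenases *Aldh1a1*, *Aldh1a2* and *Aldh1a3*. The product is carried in the cytosol by *Crabp1* and *Crabp2*, acts in the nucleus through receptors such as *Rarg*, the main retinoic acid receptor of the epidermis, and is degraded by *Cyp26b1*. In skin, retinoic acid is known as a regulator of keratinocyte growth and differentiation and of the hair cycle.

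The test of the difference between the responses of males and females passed its threshold for 3 of the 9 genes, *Dhrs9*, *Crabp1* and *Aldh1a1*, and the 250 bases upstream of their annotated starts are shown here so that the flanking DNA can be compared. The sequences are from RefSeq on GRCm38.p6, a different build from the GRCm39 of the counts, and RefSeq promoters were matched for 6 of the 9 genes (not for *Crabp2*, *Aldh1a3* and *Rdh10*). Capitals mark matches to the hexamer that retinoic acid receptors bind (AGGTCA, or AGTTCA, or GGGTCA, or GGTTCA) or to the AP-1 element (TGACTCA or TGAGTCA), each searched on both strands, with no overlap between the matches. Each sequence runs 5′ to 3′ on the strand of its gene.
Dhrs9, chr2:69380212-69380461, plus strand: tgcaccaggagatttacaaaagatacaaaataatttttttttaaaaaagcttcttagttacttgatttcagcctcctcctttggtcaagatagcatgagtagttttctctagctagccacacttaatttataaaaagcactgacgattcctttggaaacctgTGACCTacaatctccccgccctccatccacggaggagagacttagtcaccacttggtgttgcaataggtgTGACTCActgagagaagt
Crabp1, chr9:54764498-54764747, plus strand: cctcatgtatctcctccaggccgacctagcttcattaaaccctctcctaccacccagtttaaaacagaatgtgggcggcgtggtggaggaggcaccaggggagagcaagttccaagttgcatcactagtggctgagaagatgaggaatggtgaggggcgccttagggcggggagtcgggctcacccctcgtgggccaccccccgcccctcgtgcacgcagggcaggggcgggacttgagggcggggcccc
Aldh1a1, start 1, chr19:20492333-20492582, plus strand: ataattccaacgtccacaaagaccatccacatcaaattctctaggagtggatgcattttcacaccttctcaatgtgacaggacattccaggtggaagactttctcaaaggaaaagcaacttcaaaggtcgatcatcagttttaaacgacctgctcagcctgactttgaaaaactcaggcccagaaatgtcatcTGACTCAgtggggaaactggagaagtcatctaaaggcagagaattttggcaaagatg
Aldh1a1, start 2, chr19:20601718-20601967, plus strand: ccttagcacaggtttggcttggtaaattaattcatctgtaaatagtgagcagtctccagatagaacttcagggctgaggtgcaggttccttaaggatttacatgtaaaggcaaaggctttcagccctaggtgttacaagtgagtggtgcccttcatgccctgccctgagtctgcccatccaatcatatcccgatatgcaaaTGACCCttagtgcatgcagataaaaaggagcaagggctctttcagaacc
The *Dhrs9* window held 1 hexamer, beginning 88 bases before the start (position -88), and 1 AP-1 element at position -18. The *Crabp1* window held neither. The first start of *Aldh1a1* had an AP-1 element at position -57 and the second start had a hexamer at position -49. Across all 32851 RefSeq windows of this length, 38.6% held at least 1 hexamer and 4.46% at least 1 AP-1 element, so that a hexamer in a window is common. Pairs of hexamers in the same direction, the arrangement of classical retinoic acid response elements, were in 0.0883% of all windows with 5 bases between them and in 0.174% with 2 bases between them, and in 0 windows of the 6 genes. GC content was 63.6% in the *Crabp1* window and 40.4% in that of *Dhrs9*, against a median of 52.4% over all windows. Letters that match are a description of the window and not evidence of binding.

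The 16 libraries held 16495776 to 33404831 reads on genes (median 21767339), and values are given as CPM, read counts relative to the library total after scaling by edgeR's TMM method. *Xist* was at 1018 CPM or more in every female and at most 5.13 in any male, and *Ddx3y* was at 78.6 CPM or more in every male and at most 0.214 in any female, which matches the labelled sex. The labelled tissue carried its defining markers, with the summed level of *Krt5*, *Krt14* and *Col17a1* at 3560 to 10642 CPM over all mice. In no-UVB male replicates 3 and 4, the summed level of 7 hair shaft and inner root sheath genes, of which 0 were at 0 in every mouse, was 95.1 and 147 CPM, against 12.3 to 28.6 CPM in the other 14 mice. Hair shaft genes mark growing hair, while the labels place all mice in telogen, and results that rest on these libraries are given with and without them.

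Irradiated males had more RNA of both retinol dehydrogenases, of *Aldh1a3* and of both retinoic acid binding proteins, and less of *Aldh1a1* and *Aldh1a2*. By edgeR's quasi-likelihood test, at a threshold of 0.1 for the adjusted *p* (Benjamini-Hochberg over all genes tested), 5 of the 9 genes were upregulated and 2 were downregulated in males, and for all 7 the UVB-irradiated and no-UVB mice did not overlap, as was so for 47.1% of all genes tested in males and for 77.7% of those called. Of all 16535 genes tested in males, 29.0% were upregulated and 30.5% downregulated at this threshold, so that 2 downregulated genes of 9 is no larger share than in the whole table. With a log2 fold change past 1 as well, 3 of the 9 were upregulated (*Dhrs9*, *Aldh1a3* and *Crabp1*) and 1 was downregulated (*Aldh1a2*), where 4.08% and 3.31% of all genes were. The 9 genes had a median log2 fold change of 0.52, and that of all genes tested was -0.02. In females, 0 of the 9 genes were called in either direction, where 12.8% of all 16883 genes tested were upregulated and 10.6% downregulated, or 1.63% and 1.08% with a log2 fold change past 1. In females 2 of the 9 (*Cyp26b1* and *Rdh10*) had an unadjusted *p* under 0.05, a smaller share than the 30.3% of all genes tested, and DESeq2's Wald test called 1 of them, *Cyp26b1*, lower. The female median was 0.07, against 0.00 for all genes tested.

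**Figure D1:**
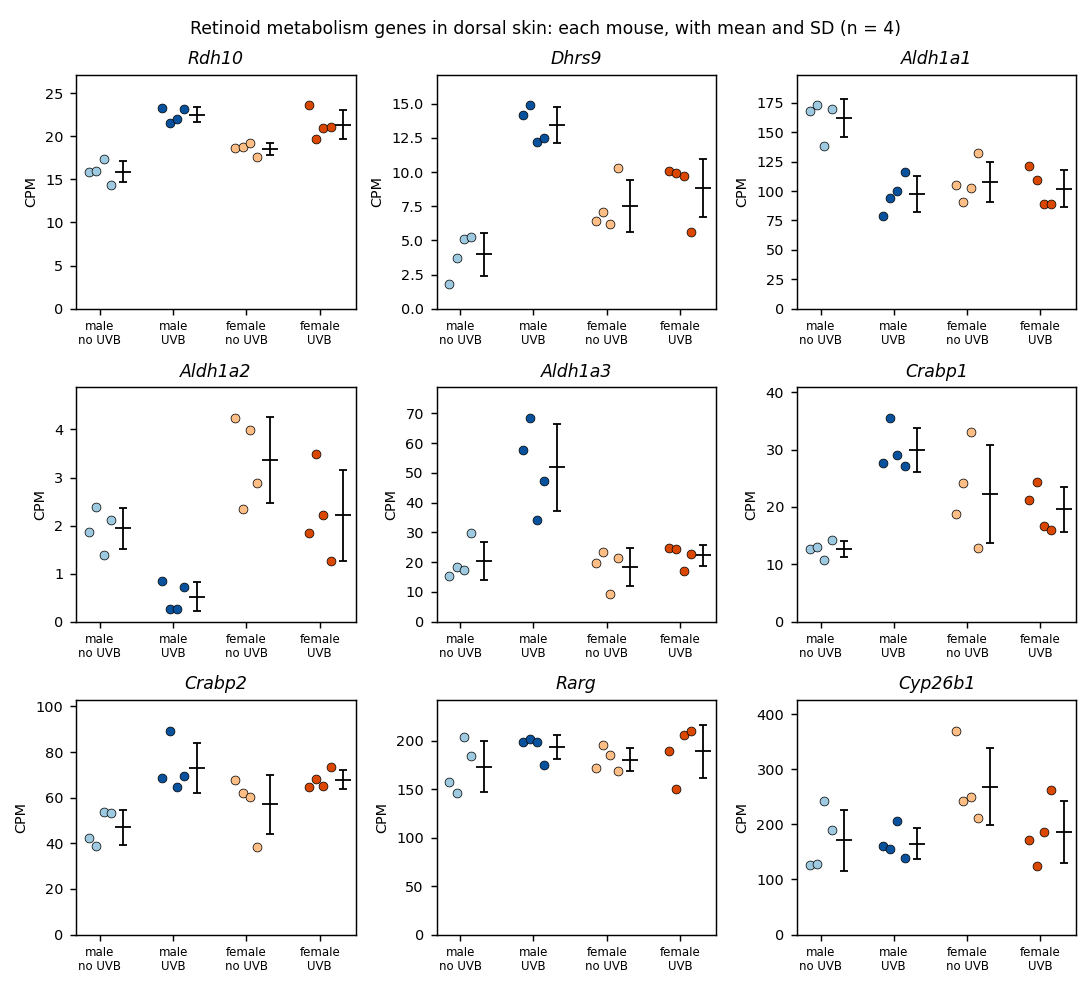
Level of the 9 retinoid metabolism genes in each of the 16 mice, in CPM (linear axes from 0), with points for mice and a dash and bar for the mean and SD of the 4 mice of a group. In *Dhrs9* the UVB-irradiated males sit at 12.2 to 14.9 CPM, above all other mice, and in *Aldh1a2* they sit at 0.255 to 0.841 CPM, below all other mice.

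*Rdh10* (ENSMUSG00000025921.8, chromosome 1 of GRCm39 from 16175555 to 16203958, plus strand) encodes the retinol dehydrogenase that carries out the first oxidation of retinol in many embryonic and adult tissues. In no-UVB males it was at 15.9, 16, 17.3 and 14.4 CPM, and in UVB-irradiated males at 23.3, 21.5, 22.0 and 23.2 CPM. In no-UVB females it was at 18.6, 18.8, 19.2 and 17.6 CPM, and in UVB-irradiated females at 23.6, 19.7, 21.0 and 21.1 CPM. Every irradiated mouse was above every control mouse of its own sex, and in females *Rdh10* was the only one of the 9 genes without overlap, where 21.2% of all genes tested had none. The log2 fold change was 0.52 in males (SE 0.0754, edgeR's adjusted *p* = 0.000177). In females it was 0.21 (SE 0.0786, edgeR's adjusted *p* = 0.102), just short of the threshold, and it passed without UVB female replicate 2 (0.24, adjusted *p* = 0.0838) and when all 16 mice were fitted together (0.20, adjusted *p* = 0.0560), within a range of 0.0560 to 0.265 over all fits. The SDs of *Rdh10* within groups were 0.664 to 1.61 CPM, around means of 15.9 to 22.5 CPM.

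*Dhrs9* (ENSMUSG00000027068.7, chromosome 2 from 69210776 to 69234877, plus strand), a short-chain dehydrogenase that can oxidise retinol and steroid substrates, was the member with the largest rise in males. The no-UVB males had 1.82, 3.68, 5.11 and 5.28 CPM (39 to 118 counts) and the UVB-irradiated males 14.2, 14.9, 12.2 and 12.5 CPM (231 to 457 counts). The no-UVB females had 6.45, 7.05, 6.22 and 10.3 CPM, and the UVB-irradiated females 10.1, 9.92, 9.69 and 5.63 CPM. Males without UVB were below all females, males after UVB were above all of them, and the 2 female groups overlapped. *Dhrs9* was 3.45-fold higher after UVB in males (log2 fold change 1.79, SE 0.252, edgeR's adjusted *p* = 0.000274), and its log2 fold change in females was 0.25 (SE 0.217, adjusted *p* = 0.476). The male value ranged from 1.54 to 2.33 over 18 fits that changed the scaling, the filter, the test or the mice, and was past the threshold in all of them. The highest, 2.33, came without no-UVB male replicates 3 and 4.

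The 3 retinal dehydrogenases moved in different directions in males. *Aldh1a3* (ENSMUSG00000015134.16, chromosome 7 from 66040638 to 66077850, minus strand), the form known from epithelia, was at 15.5, 18.4, 17.5 and 29.7 CPM in no-UVB males and at 57.8, 68.5, 34.3 and 47.2 CPM in UVB-irradiated males. In no-UVB females it was at 19.7, 23.3, 9.17 and 21.5 CPM, and in UVB-irradiated females at 24.7, 24.6, 17.2 and 22.7 CPM. All 4 irradiated males exceeded the other 12 mice, and the female groups overlapped. The log2 fold change was 1.39 in males (SE 0.262, edgeR's adjusted *p* = 0.00271) and 0.29 in females (SE 0.253, adjusted *p* = 0.479). *Aldh1a1* (ENSMUSG00000053279.9, chromosome 19 from 20469539 to 20622825, plus strand), the form that is abundant in many adult tissues, was at 168, 173, 138 and 170 CPM in no-UVB males and at 78.9, 94.1, 99.8 and 116 CPM in UVB-irradiated males. Its levels were 105, 90.8, 103 and 132 CPM in no-UVB females and 121, 109, 89.0 and 88.9 CPM in UVB-irradiated females. The no-UVB males stood above all other mice, and the irradiated males overlapped with the females. *Aldh1a1* fell in males by 0.72 on the log2 scale (SE 0.110, edgeR's adjusted *p* = 0.000350), and its log2 fold change in females was -0.07 (SE 0.135, adjusted *p* = 0.782).

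*Aldh1a2* (ENSMUSG00000013584.6, chromosome 9 from 71122630 to 71203527, plus strand), the enzyme that makes most of the retinoic acid of the early embryo, was the lowest of the 9 genes. It had 40, 52, 32 and 37 counts in no-UVB males (1.86, 2.39, 1.39 and 2.12 CPM) and 27, 4, 5 and 14 counts in UVB-irradiated males (0.841, 0.255, 0.264 and 0.730 CPM). In no-UVB females it was at 4.24, 2.34, 3.99 and 2.88 CPM, and in UVB-irradiated females at 1.85, 3.50, 2.23 and 1.26 CPM. The groups of males did not overlap and those of females did. *Aldh1a2* fell in males by 1.76 on the log2 scale (SE 0.344, edgeR's adjusted *p* = 0.00134), the largest fall of the 9 genes, on few counts. In females the log2 fold change was -0.58 (SE 0.303, edgeR's adjusted *p* = 0.227), which passed the threshold without UVB female replicate 2, the mouse with 3.50 CPM (-0.91, adjusted *p* = 0.0493), in 1 of 17 fits with a range of 0.0493 to 0.415.

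Markers of several cell types were also called after UVB, where 29.0% of all genes tested were upregulated and 30.5% downregulated in males. In females these shares were 12.8% and 10.6%. The summed level of 6 fibroblast markers, of which 0 were at 0 in every mouse, was 79065 to 86268 CPM in no-UVB males and 28385 to 39292 CPM in UVB-irradiated males, with 5 of 6 lower. In females it was 19205 to 20539 CPM without UVB and 12113 to 21853 CPM after UVB, with 1 marker higher and 1 lower. The summed level of 4 suprabasal keratinocyte markers, of which 0 were at 0 in every mouse, was 4071 to 6392 CPM in no-UVB males and 14557 to 21174 CPM in irradiated males. In females it was 3593 to 5692 CPM without UVB and 7133 to 10268 CPM after UVB, with 4 of 4 markers higher in each sex. The summed level of 4 wound or stress keratins went from 651 to 835 CPM in no-UVB males to 3333 to 6156 CPM in irradiated males, and from 529 to 1017 CPM to 843 to 1507 CPM in females, with 4 of 4 higher in males and 3 of 4 in females. The 4 neutrophil markers, of which 3 could be tested, summed to 3.17 to 5.11 CPM in no-UVB males and 42.2 to 146 CPM in irradiated males, and to 3.14 to 5.33 and 10.6 to 16.7 CPM in the corresponding females, with 3 higher in males and 2 in females. In males, hair follicle stem cell markers went from 2127 to 2629 CPM to 909 to 1282 CPM (4 of 4 lower), T cell markers from 27.9 to 35.1 CPM to 15.5 to 20.9 CPM (3 of 3 lower) and skeletal muscle markers from 13589 to 18096 CPM to 8051 to 10342 CPM (4 of 4 lower). In females 2 of 4, 3 of 3 and 0 of 4 of these were lower. Sebocyte markers were higher for 5 of 6 and lower for 1 in males and higher for 4 of 6 in females, with sums of 4651 to 6575 CPM in no-UVB males, 6043 to 8815 in irradiated males, 5180 to 9228 in no-UVB females and 6931 to 8424 in irradiated females. Melanocyte markers were higher for 3 of 4 in males (23.8 to 33.1 and 29.4 to 45.1 CPM) and adipocyte markers lower for 3 of 5 (1279 to 1956 and 1094 to 1533 CPM), and 0 of either list were called in females. Of the dendritic and Langerhans cell markers 3 of 4 were lower and 1 higher in males, and of the macrophage markers 2 of 4 were lower. Of the dermal papilla markers 2 were lower and 1 higher of 3 tested in males, and 1 of 3 basal keratinocyte markers was higher. In females 1 dendritic and Langerhans cell, 1 macrophage and 1 dermal papilla marker were lower, and 1 dermal papilla and 1 basal keratinocyte marker higher. Both hair shaft markers tested were lower in males and 0 of 2 in females. Without no-UVB male replicates 3 and 4, the hair shaft sums of no-UVB males (21.2 and 14.9 CPM) and irradiated males (16.2 to 20.5 CPM) overlapped. Of the 3 endothelial markers 0 were called in either sex. In each of these lists 0 markers were at 0 in every mouse. The part of these markers in the results of the retinoid genes was not tested.

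Expressed per kilobase of the canonical transcript, the level of the 3 retinal dehydrogenases together was 27.1 to 35.6 CPM per kb in no-UVB males and 24.7 to 32.3 in UVB-irradiated males, which overlap. Their make-up was looked at after the values had been seen and is given without a test. *Aldh1a1* made up 85.7, 83.6, 82.1 and 77.1% of the sum in no-UVB males and 46.5, 47.0, 65.1 and 60.9% in UVB-irradiated males. The share of *Aldh1a3* was 12.1, 13.7, 16 and 20.7% in no-UVB males and 52.4, 52.7, 34.5 and 38.2% in irradiated males. In females the share of *Aldh1a3* was 21.0, 27.2, 11.2 and 19.3% without UVB and 23.3, 24.4, 22.0 and 27.6% after UVB. *Aldh1a2* made up at most 2.66% of the sum in any male and 2.27 to 7.25% in the females.

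**Figure D2:**
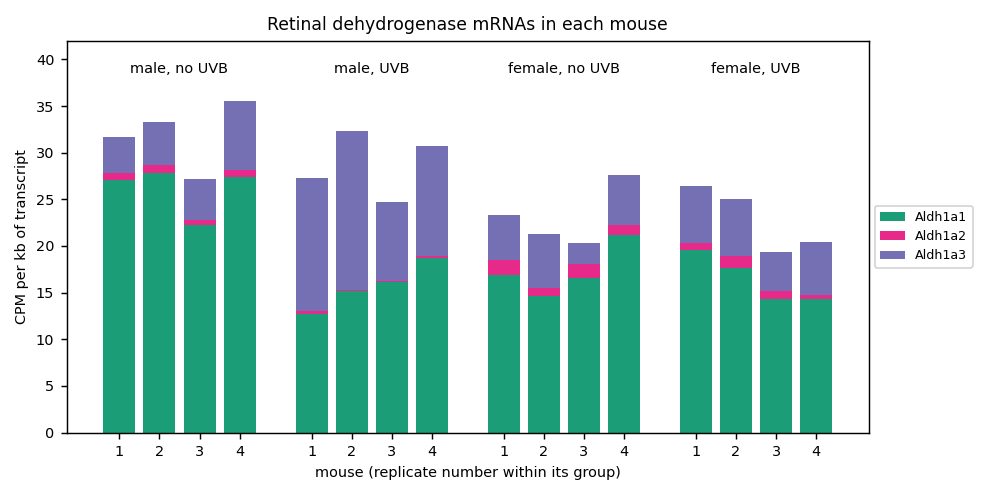
Level of the 3 retinal dehydrogenase mRNAs in each mouse, as stacked bars in CPM per kilobase of canonical transcript, by group and replicate number. The *Aldh1a3* part of the bar is 34.5 to 52.7% in irradiated males and 11.2 to 27.6% in the other 3 groups.

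The retinoic acid binding proteins rose in males. *Crabp1* (ENSMUSG00000032291.9, chromosome 9 from 54671171 to 54680403, plus strand), which binds retinoic acid in the cytosol and is known as a marker of some dermal fibroblasts, was at 12.6, 13.1, 10.8 and 14.2 CPM in no-UVB males and at 27.7, 35.5, 29.0 and 27.2 CPM in UVB-irradiated males. In no-UVB females it was at 18.7, 24.2, 33.1 and 12.9 CPM, and in UVB-irradiated females at 21.2, 24.4, 16.7 and 15.9 CPM. The male groups were far apart, and no-UVB females spread over a wider range than any other group. The log2 fold change of *Crabp1* was 1.26 in males (SE 0.108, edgeR's adjusted *p* = 5.53e-06) and -0.18 in females (SE 0.258, adjusted *p* = 0.682). The female value turned to 0.08 (adjusted *p* = 0.846) without no-UVB female replicate 3, the mouse with 33.1 CPM. *Crabp2* (ENSMUSG00000004885.6, chromosome 3 from 87855973 to 87860683, plus strand), which carries retinoic acid to its nuclear receptors and is itself induced by retinoic acid, was at 42.5, 38.7, 53.5 and 53.4 CPM in no-UVB males and at 68.5, 89.3, 64.8 and 69.6 CPM in irradiated males. In females it was at 67.8, 61.9, 60.1 and 38.3 CPM without UVB and at 64.7, 68.1, 65.2 and 73.5 CPM after UVB, so that the female groups overlapped. The log2 fold change of *Crabp2* was 0.66 in males (SE 0.130, edgeR's adjusted *p* = 0.00199) and 0.26 in females (SE 0.147, adjusted *p* = 0.271).

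*Rarg* and *Cyp26b1*, at the receiving and the degrading end of the pathway, were not called in either sex. *Rarg* (ENSMUSG00000001288.16, chromosome 15 from 102143373 to 102165952, minus strand) was at 157, 146, 204 and 184 CPM in no-UVB males and at 198, 202, 198 and 175 CPM in UVB-irradiated males. It was at 172, 195, 185 and 169 CPM in no-UVB females and at 189, 150, 206 and 210 CPM in irradiated females, and the groups overlapped in both sexes. Its log2 fold change was 0.18 in males (SE 0.101, edgeR's adjusted *p* = 0.146) and 0.07 in females (SE 0.108, adjusted *p* = 0.691). *Cyp26b1* (ENSMUSG00000063415.13, chromosome 6 from 84548396 to 84570890, minus strand), which hydroxylates retinoic acid for removal, was at 127, 128, 242 and 189 CPM in no-UVB males and at 160, 156, 206 and 139 CPM in irradiated males. In females it was at 370, 243, 249 and 211 CPM without UVB and at 172, 125, 186 and 262 CPM after UVB. The log2 fold change of *Cyp26b1* was -0.03 in males (SE 0.229, edgeR's adjusted *p* = 0.920) and -0.52 in females (SE 0.228, adjusted *p* = 0.157). The female value was past the threshold without UVB female replicate 4, the highest irradiated female (-0.73, adjusted *p* = 0.0562), and by DESeq2's Wald test (-0.53, adjusted *p* = 0.0830), in a range of 0.0562 to 0.409 over 17 fits.

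The male values of *Rarg* and *Cyp26b1* changed when the 2 no-UVB males with hair shaft RNA were left out together. Without no-UVB male replicates 3 and 4, a choice made after seeing the data, *Rarg* was upregulated in males (0.39, edgeR's adjusted *p* = 0.00270) and *Cyp26b1* turned from -0.03 to 0.42 (adjusted *p* = 0.0375). Over all 18 male fits the adjusted *p* ranged from 0.00270 to 0.323 for *Rarg* and from 0.0375 to 1.0 for *Cyp26b1*. *Rarg* also passed without no-UVB male replicate 3 (0.29, adjusted *p* = 0.0177) or without UVB male replicate 4 (0.24, adjusted *p* = 0.0852), and when the filter was loosened to genes with at least 1 count (0.21, adjusted *p* = 0.0989). It was not called without no-UVB male replicate 4, the mouse with the highest hair shaft sum (0.21, edgeR's adjusted *p* = 0.147). *Cyp26b1* was also above 0 without no-UVB male replicate 3 (0.20), no-UVB male replicate 4 (0.02) or UVB male replicate 4 (0.05), at adjusted *p* of 0.393 to 0.968. The other 7 genes kept their direction and their call in males without both mice.

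**Figure D3:**
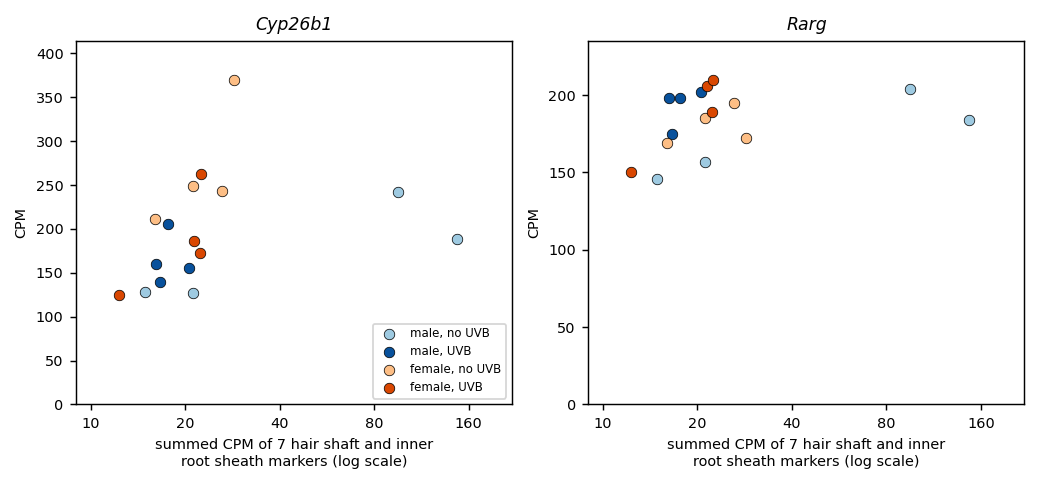
*Cyp26b1* and *Rarg* in CPM (linear axis from 0) against the summed CPM of 7 hair shaft and inner root sheath markers (log axis), with a point for each of the 16 mice. The no-UVB males with marker sums of 95.1 and 147 CPM had 242 and 189 CPM of *Cyp26b1*, against 127 and 128 CPM in the other no-UVB males, while no-UVB females, with marker sums of at most 28.6 CPM, had 211 to 370 CPM of *Cyp26b1*.

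Whether males and females responded differently was tested over all 16 mice as the male log2 fold change minus the female one. At an adjusted *p* under 0.1 it was higher for 2 of the 9 genes and lower for 1, where 2.75% of 17406 genes were higher and 4.25% lower. *Dhrs9* had a difference of 1.52 (SE 0.361, edgeR's adjusted *p* = 0.0387) and *Crabp1* a difference of 1.42 (SE 0.312, adjusted *p* = 0.0304), and both were called in all 25 fits, with adjusted *p* of 0.00152 to 0.0892 and 0.000419 to 0.0788. *Aldh1a1* had a difference of -0.67 (SE 0.188, adjusted *p* = 0.0657), called in 15 of 25 fits, with adjusted *p* of 0.0240 to 0.138. Its call was lost when any 1 of 9 mice was left out (differences of -0.65 to -0.56, adjusted *p* of 0.103 to 0.138), which were UVB females 1 and 2, no-UVB females 2 and 3, UVB males 1 and 2 and no-UVB males 1, 2 and 4.

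For *Aldh1a3* the difference of 1.08 (SE 0.395) and for *Aldh1a2* that of -1.19 (SE 0.497) were larger than that of *Aldh1a1* in size, and neither was called (edgeR's adjusted *p* = 0.140 and 0.186). *Aldh1a3* passed in 5 of 25 fits, with adjusted *p* of 0.0396 to 0.32 over all of them. These were DESeq2's Wald test (1.11, adjusted *p* = 0.0396), the replicate block (1.01, adjusted *p* = 0.0725) and the fits without no-UVB female replicate 3 (1.32, adjusted *p* = 0.0562), no-UVB male replicate 4 (1.31, adjusted *p* = 0.0872) or no-UVB males 3 and 4 together (1.33, adjusted *p* = 0.0899). *Aldh1a2* passed in 0 of 24. *Rdh10* had a difference of 0.30 (SE 0.102, adjusted *p* = 0.110) and passed in 7 of 25 fits, which were DESeq2's Wald test (0.34, adjusted *p* = 0.0383), DESeq2's size factors in edgeR, TMM without the 100 most abundant genes, the filter of at least 10 counts in every library, and the fits without UVB female replicate 1 (0.36), no-UVB female replicate 4 (0.34) or no-UVB male replicate 3 (0.34). *Crabp2* had 0.38 (SE 0.215, adjusted *p* = 0.319) and passed without no-UVB female replicate 4 (0.55, adjusted *p* = 0.0702), and had 0.59 without no-UVB males 3 and 4 (adjusted *p* = 0.144). The differences of *Cyp26b1* (0.48) and *Rarg* (0.10) were not called (adjusted *p* = 0.464 and 0.764). Without no-UVB males 3 and 4 they were 0.90 and 0.28, also not called (adjusted *p* = 0.137 and 0.287). The difference of *Cyp26b1* was 0.28 without no-UVB female replicate 1, and that of *Rarg* was -0.0011 without UVB female replicate 2. The median difference of the 9 genes was 0.38, against -0.02 for all genes tested.

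**Figure D4:**
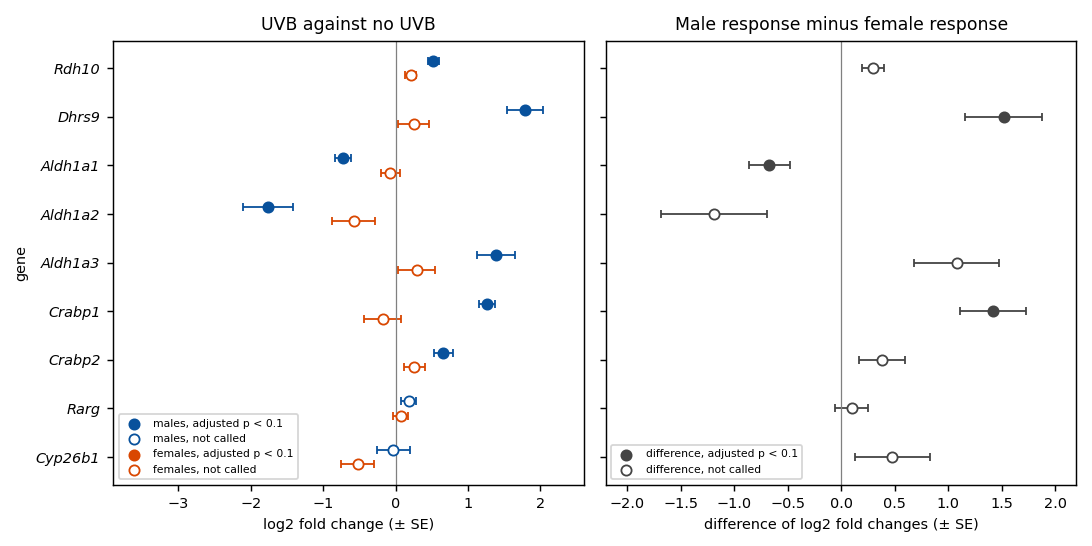
Left, log2 fold change of UVB against no UVB for the 9 genes in males and females, with bars of 1 SE; right, the male response minus the female response from the fit over 16 mice. Filled points are past an adjusted *p* of 0.1, which holds for 7 genes in males, 0 in females and 3 for the difference.

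Where the sexes differed depended on the gene. The sums of fibroblast markers did not overlap between no-UVB males (79065 to 86268 CPM) and no-UVB females (19205 to 20539 CPM). Skeletal muscle markers were also higher in no-UVB males (13589 to 18096 against 8783 to 12948 CPM) and T cell markers lower (27.9 to 35.1 against 36.0 to 49.3 CPM). The sums of the other marker lists overlapped, and the part of these markers in the contrasts between sexes was not tested. Without UVB, males were lower than females for 3 of the 9 genes and higher for 1, where 4.58% of all genes were lower and 7.21% higher. *Dhrs9* was 1.89-fold lower in no-UVB males (log2 -0.92, SE 0.265, edgeR's adjusted *p* = 0.0468), *Crabp1* was 1.76-fold lower (-0.82, SE 0.223, adjusted *p* = 0.0361) and *Rdh10* was 1.17-fold lower (-0.22, SE 0.0725, adjusted *p* = 0.0731). *Aldh1a1* was 1.51-fold higher in no-UVB males (0.59, SE 0.133, adjusted *p* = 0.0120), and this was called in all 25 fits. The no-UVB groups of males and females did not overlap for *Dhrs9*, *Aldh1a1* and *Rdh10*, as for 13.0% of all genes tested, and overlapped for *Crabp1* through no-UVB female replicate 4 at 12.9 CPM. The call of *Dhrs9* was lost without no-UVB female replicate 4 (-0.75, adjusted *p* = 0.103) or no-UVB male replicate 2 (-0.88, adjusted *p* = 0.122), and *Dhrs9* was called in 22 of 25 fits. *Crabp1* was called in 23, and not without no-UVB males 3 and 4 (-0.79, adjusted *p* = 0.148). The call of *Rdh10* was lost when any 1 of 6 mice was left out (-0.23 to -0.18, adjusted *p* of 0.115 to 0.198), namely no-UVB females 1, 2 and 3 and no-UVB males 1, 2 and 4, and also without no-UVB males 3 and 4 together (-0.22, adjusted *p* = 0.161). Without these 2 males the contrast of *Dhrs9* was -1.43. The contrast of *Cyp26b1* (-0.65, adjusted *p* = 0.130) passed without no-UVB male replicate 3 (-0.86, adjusted *p* = 0.0484) or UVB female replicate 4 (-0.66, adjusted *p* = 0.0989), without no-UVB males 3 and 4 together (-1.07, adjusted *p* = 0.0339) and by DESeq2's Wald test (-0.66, adjusted *p* = 0.0506), in 4 of the 25 edgeR and DESeq2 fits with adjusted *p* of 0.0339 to 0.326. The contrast of *Crabp2* (-0.28) passed without no-UVB female replicate 4 (-0.45, adjusted *p* = 0.0341), and that of *Aldh1a2* (-0.80) passed without UVB female replicate 2 (-0.80, adjusted *p* = 0.0958).

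After UVB, males were higher than females for 3 of the 9 genes and lower for 1, where 12.8% of all genes were higher and 12.5% lower. *Aldh1a3* was 2.33-fold higher in irradiated males than in irradiated females (log2 1.22, SE 0.277, edgeR's adjusted *p* = 0.00973) and *Aldh1a2* was 3.96-fold lower (-1.99, SE 0.379, adjusted *p* = 0.00315), with no overlap between the groups and in every fit that tested them. *Crabp1* and *Dhrs9* were each 1.52-fold higher (0.61 for both, SE 0.217 and 0.244, adjusted *p* = 0.0677 and 0.0990), also without overlap, which 21.2% of all genes tested showed. These 2 calls lay close to the threshold. That of *Crabp1* was lost when any 1 of 6 mice was left out (0.51 to 0.64, adjusted *p* of 0.103 to 0.167), namely UVB females 1, 3 and 4 and UVB males 1, 2 and 3. That of *Dhrs9* was lost when any 1 of 12 mice was left out (0.44 to 0.67, adjusted *p* of 0.104 to 0.225), that is, any irradiated mouse of either sex, no-UVB female 1, 2 or 3, or no-UVB male 2. The call of *Dhrs9* was also lost with the replicate block (0.61, edgeR's adjusted *p* = 0.133) and with counts without regard to strand (0.60, adjusted *p* = 0.107). *Dhrs9* was called in 9 of 24 fits and *Crabp1* in 17 of 24. *Aldh1a1*, *Crabp2*, *Rdh10*, *Rarg* and *Cyp26b1* differed between irradiated males and females by -0.17 to 0.10, none called. These contrasts share mice with the tests within each sex and are no independent evidence of them.

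The other genes of the retinoid pathway were taken as a list of 46, of which 39 could be tested within each sex and 40 over all 16 mice. In males 17 were upregulated and 10 downregulated, with 6 of the former and 0 of the latter past a log2 fold change of 1, beside 29.0% and 30.5% (4.08% and 3.31% past that fold) of all genes tested, so that the share downregulated was no larger than in the whole table. The list's median in males was 0.05 against -0.02 for all genes. In females 15 were upregulated and 0 downregulated, with 1 past a log2 fold change of 1, beside 12.8% and 10.6% (1.63% higher past that fold) of all genes tested, and the median was 0.21 against 0.00. Among the genes of uptake and retinol binding, *Rbp2* was higher in both sexes. Of the 16 tested enzymes that interconvert retinol and retinal, 10 were higher and 3 lower (*Rdh5*, *Dhrs3*, *Adh7*) in males, and 9 were higher and 0 lower in females, to be read against the same shares of all genes, with the 3 lower in males below the share in the whole table. Ester storage and release had *Lrat* and *Dgat1* higher and *Lipe* lower in males and *Dgat1* higher in females. Among the receptors, *Ppard* was higher in both sexes, and *Rarb*, a classical target of retinoic acid, and *Rxrg* were lower in males. *Cyp26a1* and *Cyp26c1*, the other retinoic acid hydroxylases, had at most 5 and 3 counts in any mouse and were not tested.

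*Rbp2*, a cellular retinol binding protein known from the small intestine, had the largest change of the list. It was at 5.52 to 7.18 CPM in no-UVB males, 36.8 to 77.5 CPM in UVB-irradiated males, 4.45 to 7.33 CPM in no-UVB females and 10.8 to 21.6 CPM in UVB-irradiated females. The log2 fold change of *Rbp2* was 3.18 in males (SE 0.243, edgeR's adjusted *p* = 1.55e-05) and 1.34 in females (SE 0.224, adjusted *p* = 0.00425), and the difference was 1.82 (SE 0.345, adjusted *p* = 0.0168). *Fabp5*, the fatty acid binding protein of the epidermis that can carry retinoic acid to PPAR delta, was at 267 ± 15.8 CPM in no-UVB males and 984 ± 142 CPM in irradiated males, and at 271 ± 44.1 and 513 ± 38.8 CPM in the corresponding females (mean ± SD, n = 4). Its log2 fold changes were 1.91 and 0.93 (edgeR's adjusted *p* = 4.74e-07 and 0.00115), with a difference of 0.97 (SE 0.167, adjusted *p* = 0.0114). Both sexes thus rose for these carriers, and the rise was larger in males.

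*Rdh12*, *Rdh13* and *Sdr16c5*, which act on retinal or retinol, rose in both sexes. *Rdh12* had log2 fold changes of 1.18 in males and 0.78 in females, *Rdh13* of 0.97 and 0.69, and *Sdr16c5* of 0.75 and 0.79, and the difference between the sexes was not called for any of them (edgeR's adjusted *p* = 0.172, 0.317 and 0.911). *Rdh1*, *Rdh9* and *Rdh16* are close paralogs in 1 gene cluster, so that their counts are uncertain where reads fit several of them. Their log2 fold changes in males were 0.84, 1.62 and 1.73, all called, and those in females were 0.55, 0.57 and 0.35, of which that of *Rdh1* was called (edgeR's adjusted *p* = 0.0555). *Rdh9* and *Rdh16* had few counts, 4 to 11 and 11 to 40 in no-UVB males and 15 to 53 and 58 to 136 in irradiated males. The call of *Rdh1* in females was lost without UVB females 1, 3 or 4 or no-UVB female 2 (0.46 to 0.57, adjusted *p* of 0.103 to 0.144). The difference of *Rdh16* was 1.37 (SE 0.437, adjusted *p* = 0.0948). *Bco2*, which cleaves carotenoids, fell in males by 0.75 on the log2 scale (adjusted *p* = 0.0248) and had -0.27 in females (adjusted *p* = 0.337). *Bco1*, the enzyme that cleaves beta-carotene to retinal, and *Rxrg* were the 2 of 40 pathway genes whose response was called lower in males than in females (edgeR's adjusted *p* = 0.0890 and 0.0668), beside 4.25% of all genes, named after their values were seen. That count was 0 when any 1 of 7 mice was left out (UVB females 2 and 4, no-UVB females 1 and 2, UVB males 1 and 3, no-UVB male 2) and 5 without no-UVB male replicate 3.

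**Figure D5:**
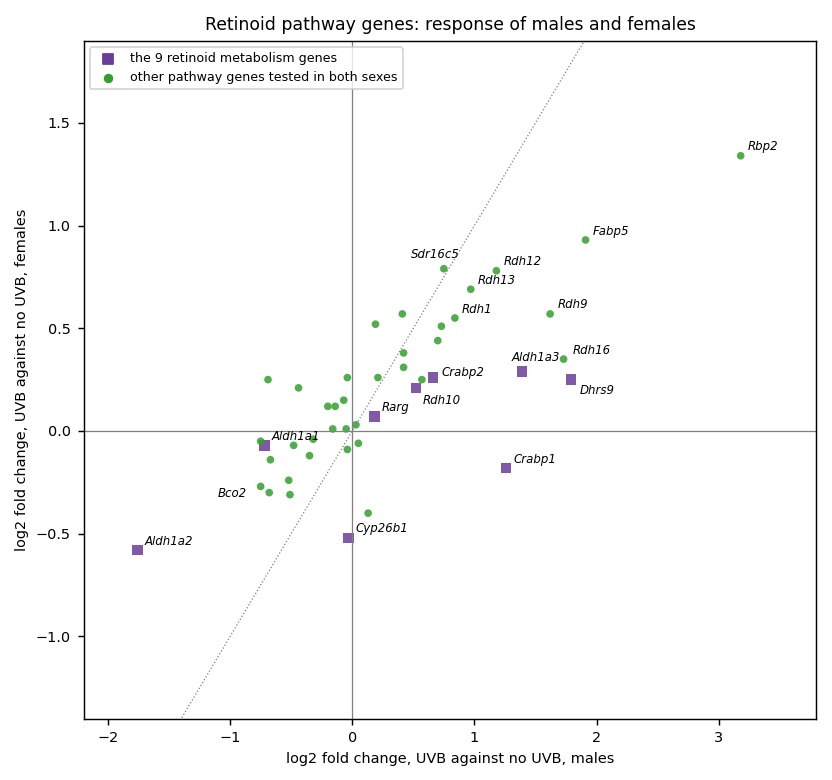
Log2 fold change after UVB in males (horizontal) and females (vertical) for the 9 retinoid metabolism genes (squares) and 37 of the 39 other pathway genes tested in both sexes (circles; 2 are not shown), with a dotted line where both are equal. *Dhrs9* (1.79 and 0.25), *Aldh1a3* (1.39 and 0.29) and *Crabp1* (1.26 and -0.18) lie to the right of and well below that line, while *Sdr16c5* (0.75 and 0.79) lies close to it.

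Levels of different genes were compared as CPM per kilobase of canonical transcript. In no-UVB males *Rarg* was highest (mean 63.5 CPM per kb), followed by *Crabp2* (50.5), *Cyp26b1* (31.9), *Aldh1a1* (26.2), *Crabp1* (15.6), *Aldh1a3* (5.03), *Rdh10* (3.94), *Dhrs9* (0.925) and *Aldh1a2* (0.718). Ranges over the 4 mice overlapped between neighbours in this order except between *Aldh1a1* and *Crabp1*, *Crabp1* and *Aldh1a3*, and *Rdh10* and *Dhrs9*. In UVB-irradiated males *Crabp2* was first (78.5), ahead of *Rarg* (71.1), *Crabp1* (36.8), *Cyp26b1* (30.7), *Aldh1a1* (15.7), *Aldh1a3* (12.9), *Rdh10* (5.58), *Dhrs9* (3.13) and *Aldh1a2* (0.193). The ranges of *Crabp2* (69.6 to 96.0) and *Rarg* (64.2 to 74.2), of *Crabp1* (33.5 to 43.8) and *Cyp26b1* (26.0 to 38.3), and of *Aldh1a1* (12.7 to 18.7) and *Aldh1a3* (8.52 to 17.0) overlapped in irradiated males, so that their order within each pair is not resolved, while the other neighbours did not overlap. In females the first 5 places were held by the same genes in both groups, *Rarg* (66.2 without UVB and 69.4 after UVB), *Crabp2* (61.2 and 72.9), *Cyp26b1* (50.0 and 34.7), *Crabp1* (27.4 and 24.1) and *Aldh1a1* (17.3 and 16.5). Each neighbouring pair of these overlapped without UVB, and after UVB *Rarg* and *Cyp26b1* did not overlap. *Aldh1a3*, *Rdh10*, *Dhrs9* and *Aldh1a2* were at 4.57, 4.60, 1.75 and 1.24 CPM per kb in no-UVB females and at 5.54, 5.30, 2.06 and 0.816 in irradiated females. *Aldh1a3* and *Rdh10* overlapped in both groups. Without UVB *Dhrs9* (1.45 to 2.40) also overlapped with *Aldh1a2* (0.864 to 1.57) and *Aldh1a3* (2.28 to 5.79), and after UVB it overlapped with neither.

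The genes whose levels were most like those of each member were found by Pearson's correlation of log2 CPM over the 16 mice, among 12308 other genes with a mean of at least 5 CPM. The points are mice of 4 groups, so that differences between groups enter the correlation, and it is given as a description. For *Dhrs9* these were *Mgst2*, a microsomal glutathione transferase gene (0.906), and *Slc37a2* (0.880), and for *Aldh1a3* they were *Akr1b8*, an aldo-keto reductase gene (0.930), and *Stac2* (0.911). For *Aldh1a1* they were *Pdgfd*, which encodes a platelet-derived growth factor (0.948), and *Omd*, which encodes osteomodulin (0.938), and for *Aldh1a2* *Irag2* (0.955) and *Plekha2* (0.935). *Rdh10* was nearest to *Clstn3* (0.935) and *BC016579* (0.925), *Crabp1* to *Cul4b* (0.898) and *Coil* (0.836), and *Crabp2* to *Pithd1* (0.901) and *Mab21l3* (0.897). *Rarg* was nearest to *Ephb3*, an ephrin receptor gene (0.910), and *Gse1* (0.905), and *Cyp26b1* to *Wnk4*, a kinase gene (0.907), and the long noncoding RNA *9330151L19Rik* (0.848). None of these 18 genes was another gene of the pathway lists.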

How the data were processed

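RNA from whole dorsal skin of 16 mice, 4 in each group of sex and treatment, was sequenced by the authors as directional poly(A) libraries. The deposited files hold STAR gene counts per mouse on GRCm39, as whole numbers without normalization; the STAR version and annotation release are not given in the sources used here. The count of the strand that the kit reports was used (the other strand held 3.63 to 4.23% of the gene reads), and reads mapping to several places were listed as 0 in every mouse. Of each library 70.08 to 79.22% fell on genes, and only these entered library sizes. Depth was 16495776 to 33404831 reads on genes. Identifiers were matched to GENCODE M39 symbols without version numbers for 54749 of 55359.

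Genes were kept by filterByExpr, scaled by TMM and tested by the robust quasi-likelihood method of edgeR (edgeR 4.0.16, limma 3.58.1, R 4.3.3), fitted on all genes with Benjamini-Hochberg adjustment over all genes tested. A gene was called at an adjusted *p* under 0.1, with a log2 fold change past 1 as a second threshold, after the thresholds in the study's methods, which used DESeq2. Each sex was fitted over its 8 mice, and the difference between responses and the contrasts between sexes over all 16. SE is the log2 fold change divided by the square root of the test's F value. Python 3.11.15 (pandas 2.3.3, numpy 2.4.6, matplotlib 3.10.9) served for tables and plots. The procedure was tested on simulated data. Libraries of a group were checked for duplicates (chi-square per degree of freedom 10.4 to 109 over 24 pairs, 1 expected from sampling alone). Replicates are separate mice as the labels give them.

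Alternatives were DESeq2 1.42.0 (Wald test, size factors in edgeR, apeglm 1.24.0 shrinkage), a looser filter (1 count in total), a stricter one (10 counts in each library), counts without regard to strand, the replicate number as a block, all 16 mice in a single fit, and each mouse left out. Leaving out no-UVB male replicates 3 and 4 together and TMM without the 100 most abundant genes were chosen after seeing the data. The 9 members, the 46 other pathway genes and the marker lists were written by hand and chosen with earlier results of these data known. Named genes were the members, the 10 other pathway genes called in either sex with the largest absolute log2 fold change, the 2 genes most correlated with each member (log2 CPM, prior count 2), and *Xist* and *Ddx3y*. Of the genes so named, 1 is not reported here. Genes named for their role in a count, beyond these, were chosen after their values were seen. Levels per kilobase used the Ensembl canonical transcript. No mouse was left out of the main results, and the single-cell and imaging experiments of the study were not used here.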

Additional observations from a re-analysis of the deposited data

Results flagged for a closer look

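In 36 groups of 4 mice (9 genes by 4 groups), 3 single mice lay farther from the rest of their group than Dixon's 95% limit allows, where chance gives about 1 in 20. *Dhrs9* was at 5.63 CPM in UVB female replicate 4, below 9.69 to 10.1 CPM in the other irradiated females, and its female log2 fold change was 0.17 to 0.43 over 17 fits, with 0 of them past the threshold. *Aldh1a1* was at 138 CPM in no-UVB male replicate 3, against 168 to 173 CPM in the other no-UVB males. *Rarg* was at 175 CPM in UVB male replicate 4, against 198 to 202 CPM in the other irradiated males, and without it the male rise was called (0.24, edgeR's adjusted *p* = 0.0852, in a range of 0.00270 to 0.323 over all fits).

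The response to UVB differed between males and females, by edgeR's test of the difference over 16 mice, for *Crabp1* (1.42, adjusted *p* = 0.0304), *Dhrs9* (1.52, adjusted *p* = 0.0387) and *Aldh1a1* (-0.67, adjusted *p* = 0.0657). Among the named genes of the wider pathway it differed for *Rbp2* (1.82, adjusted *p* = 0.0168), *Fabp5* (0.97, adjusted *p* = 0.0114) and *Rdh16* (1.37, adjusted *p* = 0.0948). Male responses were the higher ones in all of these but *Aldh1a1*. Where the difference lay varied: *Crabp1*, *Dhrs9* and *Aldh1a1* differed between the sexes without UVB as well, by -0.82, -0.92 and 0.59 on the log2 scale (edgeR's adjusted *p* = 0.0361, 0.0468 and 0.0120), while *Rbp2* and *Fabp5* were at 6.14 ± 0.719 and 267 ± 15.8 CPM in no-UVB males and at 6.04 ± 1.34 and 271 ± 44.1 CPM in no-UVB females (SD, n = 4).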

How the results depend on the processing

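In males, the direction and call of *Crabp1*, *Crabp2*, *Dhrs9*, *Aldh1a1*, *Aldh1a2*, *Aldh1a3* and *Rdh10* held in every fit that tested them. A log2 fold change past 1, with or without apeglm shrinkage in DESeq2, left 3 members higher and 1 lower and, of the other pathway genes, 6 higher and 0 lower in males and 1 higher in females. Requiring at least 10 counts in every library removed *Aldh1a2*, so that 1 member was lower in males and 0 were lower in irradiated males against irradiated females; fewer genes were tested. The male *Cyp26b1* value of -0.03 reversed to 0.01 with the replicate block (adjusted *p* = 0.972) and to 0.42 without no-UVB males 3 and 4 (adjusted *p* = 0.0375), and over fits without 1 mouse it ran from -0.16 to 0.20. In females, fitting all 16 mice called 1 member higher (*Rdh10*) and DESeq2's Wald test called 1 lower (*Cyp26b1*), and fits without 1 mouse called 0 to 1 higher and 0 to 1 lower. The other pathway genes higher in females numbered 9 to 15 over these fits, with 9 without UVB female replicate 3, *Crabp1* ran from -0.37 to 0.08 and *Aldh1a1* from -0.16 to 0.04. Without UVB female replicate 3, 1500 of 17058 genes were higher in females, against 2162 of 16883 in the main fit.

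For the difference between the responses, DESeq2's Wald test called 4 members and 5 other pathway genes higher. By that test 1102 of all 17406 genes were higher, against 478 in the main fit. Testing every gene with at least 1 count left 0 members and 1 other pathway gene lower, and the latter numbered 4 both with the replicate block and without no-UVB males 3 and 4. Without 1 mouse, 2 to 4 members were higher (4 without no-UVB female replicate 4) and 0 to 1 lower, 2 to 5 other pathway genes were higher (5 without UVB female replicate 3) and 0 to 5 lower (0 without UVB female replicate 2, 5 without no-UVB male replicate 3), and *Rarg* ran from -0.0011 to 0.19. For males against females without UVB, the main fit called 2 of 40 other pathway genes higher and 0 lower, beside 7.21% and 4.58% of all genes. Testing every gene with at least 1 count left 0 members lower. The fit without no-UVB males 3 and 4 called 1 other pathway gene lower and gave *Aldh1a3* -0.11 (adjusted *p* = 0.896). Without 1 mouse, 1 to 4 members were lower (1 without no-UVB male replicate 2), 1 to 2 other pathway genes higher and 0 to 1 lower, *Aldh1a3* ran from -0.10 to 0.26 and *Rarg* from -0.15 to 0.01. After UVB, the main fit called 9 of 40 other pathway genes higher and 9 lower, beside 12.8% and 12.5% of all genes. Testing every gene with at least 1 count left 1 member higher and 5 other pathway genes lower. Without 1 mouse, 1 to 3 members were higher and 4 to 10 other pathway genes lower (4 without UVB male replicate 1), *Crabp2* ran from -0.01 to 0.16, *Cyp26b1* from -0.32 to 0.04, *Aldh1a1* from -0.17 to 0.02 and *Rarg* from -0.06 to 0.09. The calls over all genes also changed between these fits. After UVB, 1489 of 17558 genes were lower without UVB male replicate 1, against 2169 of 17406 in the main fit. The causes of these shifts were not tested. Among the members, DESeq2's size factors and TMM without the 100 most abundant genes changed no direction, and both called the difference of *Rdh10* (0.33 and 0.34, adjusted *p* = 0.0817 and 0.0744).

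Correlations of same-numbered deviations were -0.13 to 0.03 in males and -0.26 to 0.38 in females. Mice of different numbers were not compared, so these values cannot decide whether replicate numbers pair the mice. The replicate block serves only as an alternative. Among the members, depth limits *Aldh1a2* most, with 4 to 27 counts per irradiated male.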
